A study of Arabidopsis thaliana with 3 samples.

Results

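Binding sites of TSN1 in genes that carried the protein both in the coding sequence (CDS) and in the 3' untranslated region (3' UTR) are described here, as those parts of the messenger RNA were labelled by the authors. The genes were chosen by the authors' region labels of their sites: a protein-coding gene was taken when at least 1 site had the label 3' UTR and at least 1 the label CDS, and all of its sites were then kept. This gave 3339 sites, out of 5295 sites in protein-coding genes and 5673 sites in all. The genes that hold them make up 37.2% of the 1403 protein-coding genes with a site. That a gene has both labels is therefore no finding, and numbers of sites per label are given as a description. The sites come from iCLIP2, in which ultraviolet light joins protein to RNA in the living plant and reverse transcription stops at the joined nucleotide. There was 1 group of 3 biological replicates, Arabidopsis thaliana seedlings of the genotype pTSN1::GFP:TSN1 in Col-0, and no control sample. The fusion of green fluorescent protein to TSN1 was driven by the TSN1 promoter in plants whose own TSN1 gene was wild type, so part of the TSN1 protein may have carried no tag. Seedlings were 14 days old, grew with 16 h of light, received 2000 mJ/cm2 at 254 nm, were collected 10 h after lights on, and each replicate pooled 3 plates of tissue that was mostly aerial. The deposited lists pool the replicates and hold no value per replicate, so no test over replicates could be made, and every interval below covers counting error or the spread among genes only. With no control analysed here, crosslinks of TSN1 and background RNA in the pull-down cannot be told apart.

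TSN1 (Tudor staphylococcal nuclease 1) is an RNA-binding protein with nuclease-like repeats and a Tudor domain, known in plants from stress granules and from stress tolerance. The coding sequence of a messenger RNA is travelled by ribosomes, while the 3' UTR lies behind the stop codon and is where many regulatory proteins bind. Sites of both labels in 1 gene allow the labels to be compared within that gene, whereas genes differ from each other in RNA level. Each site is 5 nt long and has an authors' score with no stated unit, so a log2 difference of scores orders sites and is not a fold of crosslinking.

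The labels needed a check before use, because 3' UTRs are as a rule shorter than the coding sequence in front of them. In 500 genes all CDS sites lay upstream of all 3' UTR sites, which is the order of the 2 parts in a messenger RNA. In the other 22 genes, 33 of 2036 3' UTR sites lay upstream of a CDS site. The 3' UTR label nevertheless covered long stretches. The first and last 3' UTR site were over 1000 nt apart in 112 of the 391 genes that had 2 or more (28.6%, Wilson 95% interval 24.4 to 33.3), against 35 of the 292 genes with at least 2 CDS sites (12.0%, 8.75 to 16.2). In the 236 genes with at least 2 sites of each label the 3' UTR sites spread over a median of 501 nt (quartiles 194 and 1030) and the CDS sites over 250 nt (110 and 566), and the 3' UTR spread was the longer one in 153. Distances are on the genome and include introns, and no exon model was used, so which labelled sites lie behind the stop codon was not tested. Some 3' UTR-labelled sites may lie in coding exons. All statements below are about the authors' labels.

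The 3' UTR label was the more frequent one in these genes. It was carried by 2036 sites (61.0%, Wilson 95% interval 59.3 to 62.6), against 1212 CDS sites (36.3%, 34.7 to 37.9). A further 51 sites were labelled intron and 40 were labelled 5' UTR, in 38 and 34 of the genes, and 5 genes held all 4 labels. Of the 3248 sites with either main label, 62.7% (61.0 to 64.3) were 3' UTR sites. The class held 57.4% of all 3' UTR sites of protein-coding genes and 77.5% of all CDS sites.

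Gene by gene, 280 genes had more 3' UTR than CDS sites, 133 had equal numbers and 109 had fewer. The 3' UTR share of a gene had a median of 60.0% (quartiles 50.0 and 75.0), with a lowest value of 7.69% and a highest of 94.7%. Just inside the rule stood 75 genes with 1 site of each label, while 230 genes had exactly 1 CDS site and 131 had exactly 1 3' UTR site. A single CDS site beside at least 5 3' UTR sites occurred in 62 genes, and a single 3' UTR site beside at least 5 CDS sites in 11. The rule fixes the share in part, since a gene with 2 sites that are 1 of each label must be at 50.0%. Its median was 50.0% in 204 genes with 2 to 4 sites, 61.3% in 226 genes with 5 to 9 sites and 75.0% in 92 genes with 10 or more.

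**Figure D1:**
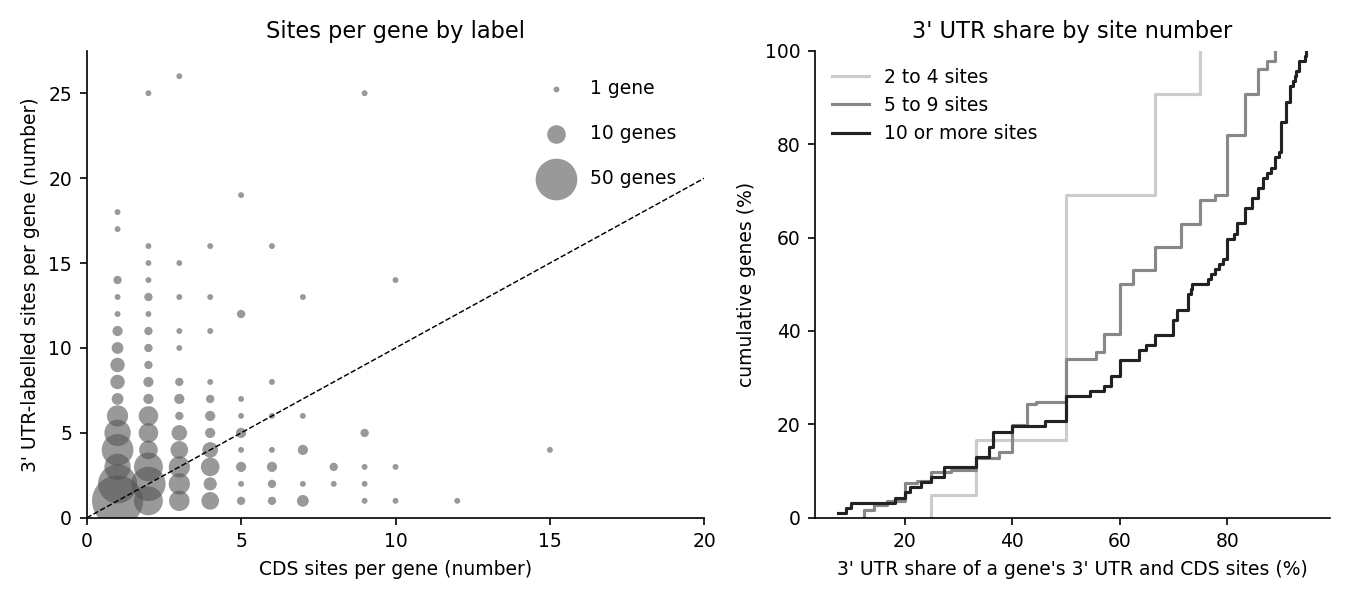
Left, number of 3' UTR sites against number of CDS sites of each gene, with the area of a circle giving the number of genes and the dashed line equal numbers. Right, cumulative share of genes by the 3' UTR share of their sites, for genes with 2 to 4, 5 to 9 and 10 or more sites. A total of 280 genes lie above the dashed line and 109 below it.

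Genes of the class had more sites than genes bound under 1 label, as a rule that asks for 2 labels makes likely. They had a median of 5 sites (quartiles 3 and 8, highest 36), while the 651 genes with 3' UTR sites only and the 163 with CDS sites only each had a median of 1. The share of protein-coding genes with both labels grew with the number of sites. It was 71 of 257 genes with 2 sites (27.6%), 133 of 259 genes with 3 or 4 sites (51.4%), 226 of 309 genes with 5 to 9 sites (73.1%) and 92 of 104 genes with 10 or more (88.5%). Site scores followed the same order, with a median of 14.5 for 3' UTR sites of the class (quartiles 9.64 and 23.1) against 9.71 for sites of genes bound in the 3' UTR only. CDS sites of the class had a median of 12.4 (8.66 and 18.8), against 10.9 for those of genes bound in the CDS only. At equal site number no single order held. Among genes with 2 sites the highest site of a gene had a median score of 11.4 in the class, 11.4 in genes with 3' UTR sites only and 10.7 in genes with CDS sites only. With 3 or 4 sites the values were 14.9, 13.6 and 18.8, and with 5 to 9 sites 23.2, 17.7 and 19.5. With 10 or more sites they were 29.0 in the class, 37.7 in 5 genes with 3' UTR sites only and 36.3 in 2 genes with CDS sites only. RNA abundance was not measured.

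Within the same gene, 3' UTR sites tended to have the higher scores. The median score was higher for 3' UTR than for CDS sites in 327 genes (62.6%, Wilson 95% interval 58.4 to 66.7), and lower in 195. The within-gene difference of median log2 score, 3' UTR minus CDS, had a median of 0.21 over genes (95% interval of the median from its order statistics 0.16 to 0.24, SD over genes 0.75). Its quartiles were -0.22 and 0.72, so the spread between genes was much larger than the shift. The difference was over 1 in 79 genes and under -1 in 19. In the 133 genes with equal numbers of sites the median difference was 0.34 (0.19 to 0.48), with 88 of them higher in the 3' UTR. Over all genes of the class the median log2 scores of the 2 labels went together (Pearson's r 0.69, Spearman's rho 0.58, a description across genes that share the pull-down). Sites of a gene share its RNA and genes are not replicates, so no p-value is given.

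The site with the highest score was a 3' UTR site in 370 genes (70.9%, 66.8 to 74.6), a CDS site in 142 and a 5' UTR or intron site in 5 each, while the mean 3' UTR share per gene was 58.8% ± 19.7 (SD over genes). Comparing only the best 3' UTR with the best CDS site, the 3' UTR site was higher in 71.8% of genes, with a median log2 difference of 0.45. A label with more sites has more chances of a high one. With equal numbers of sites the best 3' UTR site was higher in 85 of 133 genes (63.9%, 55.5 to 71.6), and with 1 site of each label in 45 of 75 (60.0%, 48.7 to 70.3), an interval that includes 50.0%. The most 3' site of the gene was the one with the highest score in 179 genes (34.3%, 30.3 to 38.5), and the most 5' site in 83 (15.9%, 13.0 to 19.3). The share to be had by picking 1 site of each gene at random is the mean of 1 over the number of sites, 22.6%.

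Scores of 3' UTR sites were then read by their distance from the 3' end of the labelled stretch. In 204 genes some 3' UTR sites lay more than 500 nt upstream of the gene's most 3' such site, 724 of 2036 in all (35.6%, 33.5 to 37.7). In those genes the distant 3' UTR sites had a median log2 difference from the CDS sites of -0.0017 (95% interval -0.10 to 0.13), and the higher median in 102 of 204 genes. The 3' UTR sites within 500 nt of the most 3' one, in the same 204 genes, were 0.21 above the CDS sites (0.11 to 0.29) and higher in 132 (64.7%, 57.9 to 70.9). Both intervals rest on the same 204 genes and the same CDS sites, so their overlap does not compare distant with near sites. The within-gene difference between distant and near sites was not tested. Pooled over genes, the median score was 13.6 among distant 3' UTR sites (quartiles 9.25 and 20.1) and 15.0 among near ones (9.95 and 25.0).

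**Figure D2:**
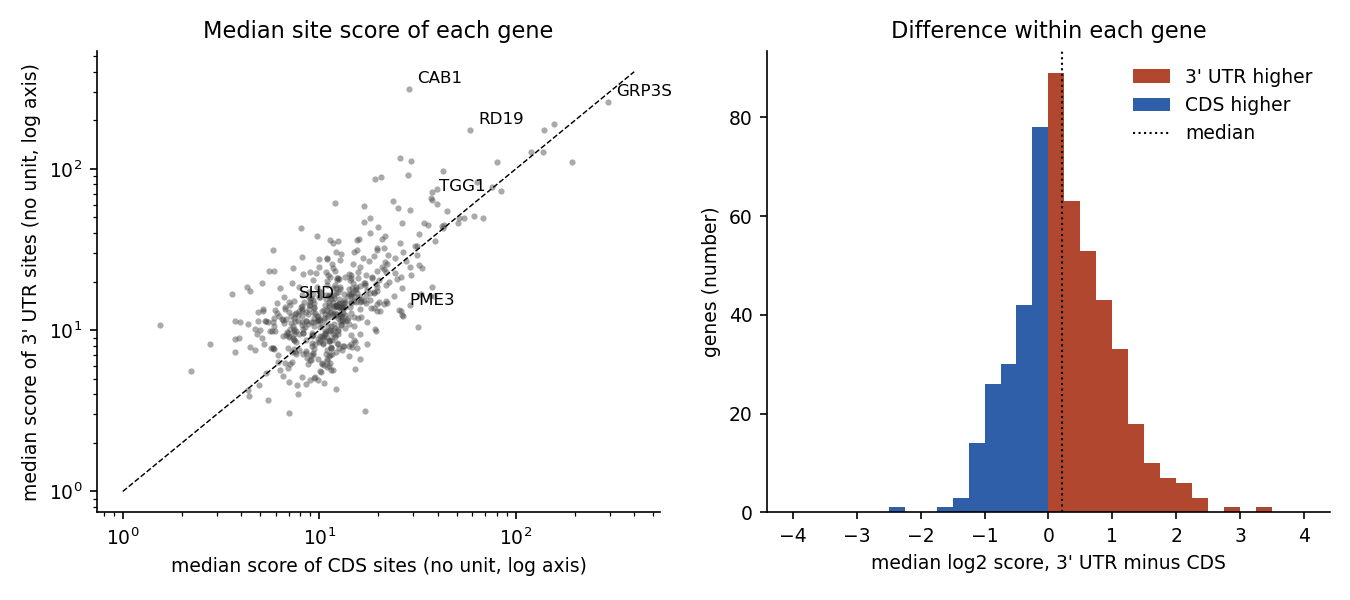
Left, median score of 3' UTR sites against median score of CDS sites, 1 point per gene on log axes, with the dashed line at equality. Right, histogram of the within-gene difference of median log2 score, 3' UTR minus CDS, with its median of 0.21 dotted. Points lie on both sides of the line, with 327 genes above it and 195 below.

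Genes with the highest summed scores encoded secreted or vacuolar proteins, proteins of photosynthesis and a proton pump. TGG1 (AT5G26000, chromosome 5, 9079830 to 9082188), the myrosinase that splits glucosinolates in defence, had 16 3' UTR sites with scores from 34.2 to 128.5 (median 66.3) and 4 CDS sites with scores from 30.5 to 76.4 (median 36.8). The label ranges overlapped in TGG1, and its 6 highest sites, at 93.3 and above, were all 3' UTR sites. RD19 (AT4G39090, chromosome 4, 18215731 to 18217283), a papain-type cysteine protease of the vacuole, had 3' UTR scores of 95.3, 41.9, 239, 218 and 173 in transcript order and CDS scores of 48.9, 95.1, 69.5 and 41.0. Its 3 highest sites stood side by side at the 3' end, at 1533, 1542 and 1548 nt from the most 5' site, and the other 2 3' UTR sites lay inside the CDS range or just above it.

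CAB1 (AT1G29930, chromosome 1, 10478551 to 10478909), a light-harvesting protein of photosystem II, had the largest difference of the class, 3.46. Its 2 3' UTR sites scored 308 and 316, and its 3 CDS sites 26.1, 28.5 and 30.7, so the labels did not overlap. RBCS3B (AT5G38410), a small subunit of Rubisco, had 3' UTR scores of 39.7, 235 and 96.7 and 6 CDS scores between 23.7 and 60.4. CAB1 and RBCS3B belong to families of near-identical copies, so the assignment of their sites to 1 copy is uncertain. AVP1 (AT1G15690, chromosome 1, 5399075 to 5402315), the vacuolar proton pump driven by pyrophosphate, had 13 3' UTR sites from 20.7 to 81.9 (median 36.9), and its 2 CDS sites scored 26.0 and 16.8.

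In other genes at the top by summed score the labels were level or the CDS was higher. GRP3S (AT2G05380, chromosome 2, 1966894 to 1967995), a secreted glycine-rich protein, had 4 3' UTR sites at 219, 79.1, 306 and 318, while its single CDS site scored 295, inside that range. The related GRP-3 (AT2G05520) had 3' UTR scores of 128, 183 and 84.0 and CDS scores of 164, 150, 110 and 126. AT2G45180, described by the authors as a protein of the lipid transfer and seed storage family, had 3' UTR scores of 64.5 and 191 and CDS scores of 162 and 228. BGAL1 (AT3G13750, chromosome 3, 4511104 to 4516210), a beta-galactosidase of the cell wall, had a median score of 29.3 over 25 3' UTR sites and of 31.6 over 9 CDS sites, yet its highest 3' UTR site reached 72.6 against 34.5 in the CDS. APA1 (AT1G11910), a vacuolar aspartic protease, had 19 3' UTR sites with a median of 24.3 and 5 CDS sites with a median of 33.2, and its best site, at 68.5, was in the CDS.

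Genes with most sites differed in their mix of labels. SHD (AT4G24190, chromosome 4, 12551793 to 12555639), the HSP90-type chaperone of the endoplasmic reticulum (ER), had 25 3' UTR sites over 3675 nt with a median score of 14.4, and 2 CDS sites at 9.59 and 5.27. The first 3' UTR site of SHD followed the last CDS site by 148 nt. ERD6 (AT1G08930, chromosome 1, 2873702 to 2877125), a sugar transporter, had 26 3' UTR and 3 CDS sites with medians of 18.4 and 14.7. SHM1 (AT4G37930), a serine hydroxymethyltransferase of mitochondria that acts in photorespiration, had 16 and 6 with medians of 17.6 and 17.5. GLU1 (AT5G04140), the ferredoxin-dependent glutamate synthase, had 13 and 7 with medians of 9.51 and 12.4, and its 3' UTR sites spread over 5822 nt. PEN3 (AT1G59870, chromosome 1, 22034831 to 22039976), an ABC transporter of the plasma membrane, was close to balance with 14 and 10, with medians of 20.9 and 12.6.

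HA1 (AT2G18960, chromosome 2, 8221794 to 8227427), a proton ATPase of the plasma membrane, showed the labels out of order. It had 17 3' UTR sites over 4156 nt and 1 CDS site, and 8 of the 3' UTR sites lay upstream of that CDS site. APX1, the cytosolic ascorbate peroxidase, AT1G16180, a serinc-domain protein, NIA2, a nitrate reductase, and sks5, a relative of the copper-protein-like SKU5, followed with 2 such sites each. Without the 22 genes of this kind the within-gene score difference kept a median of 0.21 (0.16 to 0.28).

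BXL1 (AT5G49360, chromosome 5, 20011991 to 20016594), a beta-xylosidase of the cell wall, had the most CDS sites of the class, 15 over 3708 nt. Its 4 3' UTR sites scored 35.8, 27.3, 24.1 and 64.1 and lay within 206 nt at the 3' end, against CDS scores from 11.4 to 41.7. ARA12 (AT5G67360), a subtilisin-like protease of the cell wall, had 12 CDS sites between 6.05 and 21.8 and a single 3' UTR site at 20.5, the most 3' of all. AT5G14120, a membrane transporter of the major facilitator superfamily, had 3 3' UTR and 10 CDS sites with medians of 32.5 and 19.7. AT1G21670, described as a DPP6-domain protein, had 1 3' UTR site at 16.1 and 10 CDS sites with a median of 10.1. In these 4 genes and in PEN3 the 3' UTR median was the higher one. By the highest site the CDS led in ARA12 (21.8 against 20.5), AT5G14120 (37.1 against 35.1) and AT1G21670 (20.8 against 16.1). The 3' UTR led in BXL1 (64.1 against 41.7) and PEN3 (54.8 against 52.3).

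**Figure D3:**
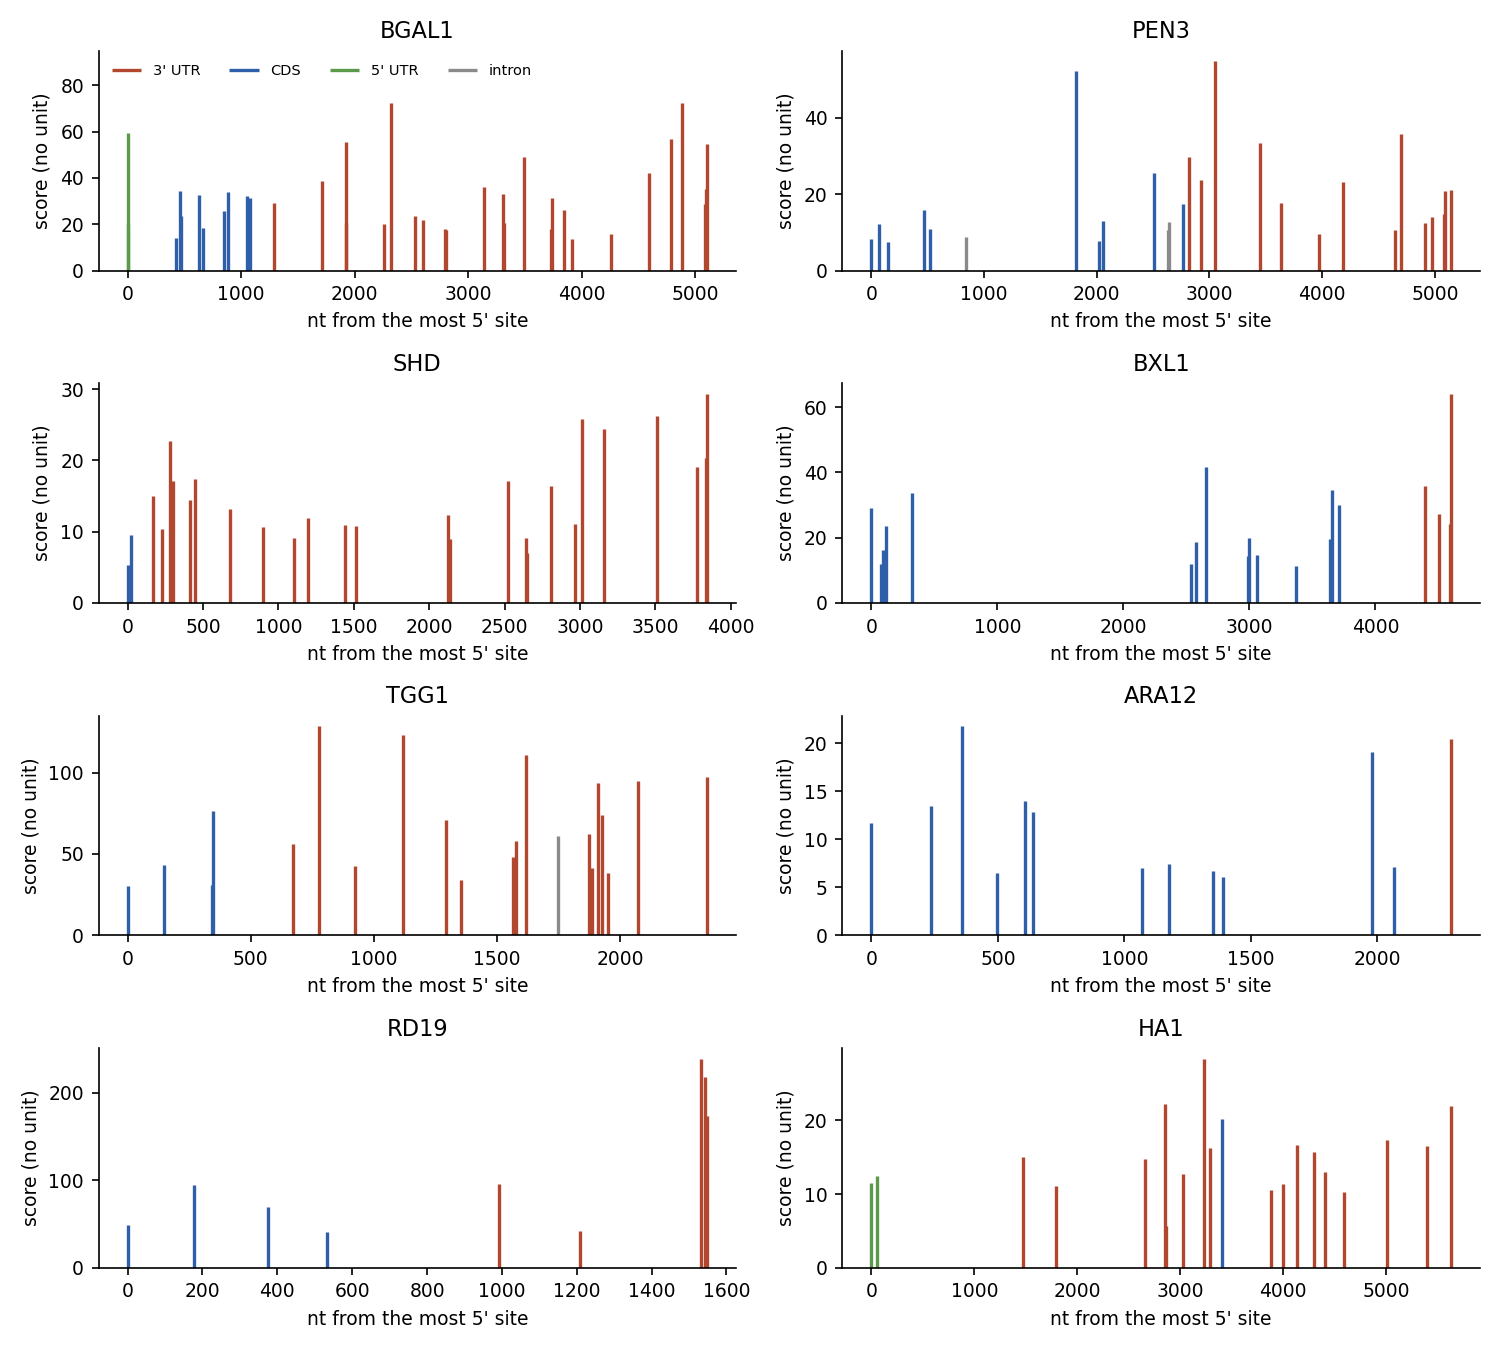
Score of each binding site (bar height, no unit) against its distance in nt along the strand from the most 5' site of the gene, for BGAL1, SHD, TGG1, RD19, PEN3, BXL1, ARA12 and HA1, coloured by the authors' label. In SHD 25 of 27 sites are 3' UTR sites over 3675 nt, in BXL1 15 of 19 are CDS sites, and in RD19 the 3 highest sites stand together at the 3' end.

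The genes with the largest shifts were read among the 103 with at least 3 sites of each label. Highest in favour of the 3' UTR was AT2G21160, the alpha subunit of the translocon-associated protein of the ER, with a difference of 2.07. Its medians were 23.2 over 3' UTR sites and 5.53 over CDS sites. The labels of AT2G21160 were out of order, with its highest 3' UTR site (35.4, at 871 nt) upstream of a CDS site at 1032 nt. AT4G23670, of a family of lipid-binding proteins, followed with 2.00 (23.4 and 5.86), RD19 with 1.57 (173 and 58.3), PSBO2, a subunit of the oxygen-evolving complex, with 1.36 (23.0 and 8.98), and AT1G29670, a GDSL-type lipase, with 1.31 (24.7 and 9.97). Highest in favour of the CDS was AT1G28600, another GDSL-type lipase, with -1.40 and medians of 5.72 over 3' UTR sites and 15.1 over CDS sites. CPD, a cytochrome P450 of brassinosteroid synthesis, had -1.04 (6.90 and 14.2), PME3, a pectin methylesterase, -0.99 (13.2 and 26.2), AAE3, an AMP-dependent synthetase, -0.90 (7.88 and 14.7), and GLDP1, the P-protein of glycine decarboxylase, -0.72 (6.23 and 10.3). Members of the GDSL-type lipase family thus stood at both ends. These genes were picked for their differences, which are given as a description.

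Neighbouring sites of the same label had similar spacing under both labels. The median distance between neighbouring 3' UTR sites was 124 nt (quartiles 29.5 and 258, 1483 pairs), against 116 nt (35.0 and 231, 663 pairs) between neighbouring CDS sites. Within 50 nt of each other lay 31.0% of the 3' UTR pairs and 30.3% of the CDS pairs. In 149 genes whose labels each spread over at least 100 nt there were 0.553 intervals between sites per 100 nt of 3' UTR spread and 0.559 per 100 nt of CDS spread (medians over genes). The smallest distance was 5 nt for both labels, which is the length of a site. Among 3' UTR sites no further than 500 nt from the gene's most 3' one, a window that removes long gaps by construction, the median distance was 74 nt, against 118.5 nt for CDS sites in the same setting.

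Neighbouring sites at a change of label from CDS to 3' UTR lay further apart. The distance had a median of 419 nt (quartiles 230 and 712, 521 pairs), and 0.960% of these pairs lay within 50 nt. Neighbouring sites of the same label, both labels pooled, lay a median of 122 nt apart, or 346 nt when each gap was weighted by its length, a weighting chosen after the distances were seen. In the 500 genes with the labels in order, the distance from the last CDS site to the first 3' UTR site had a median of 433 nt (237.75 and 742.25).

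**Figure D4:**
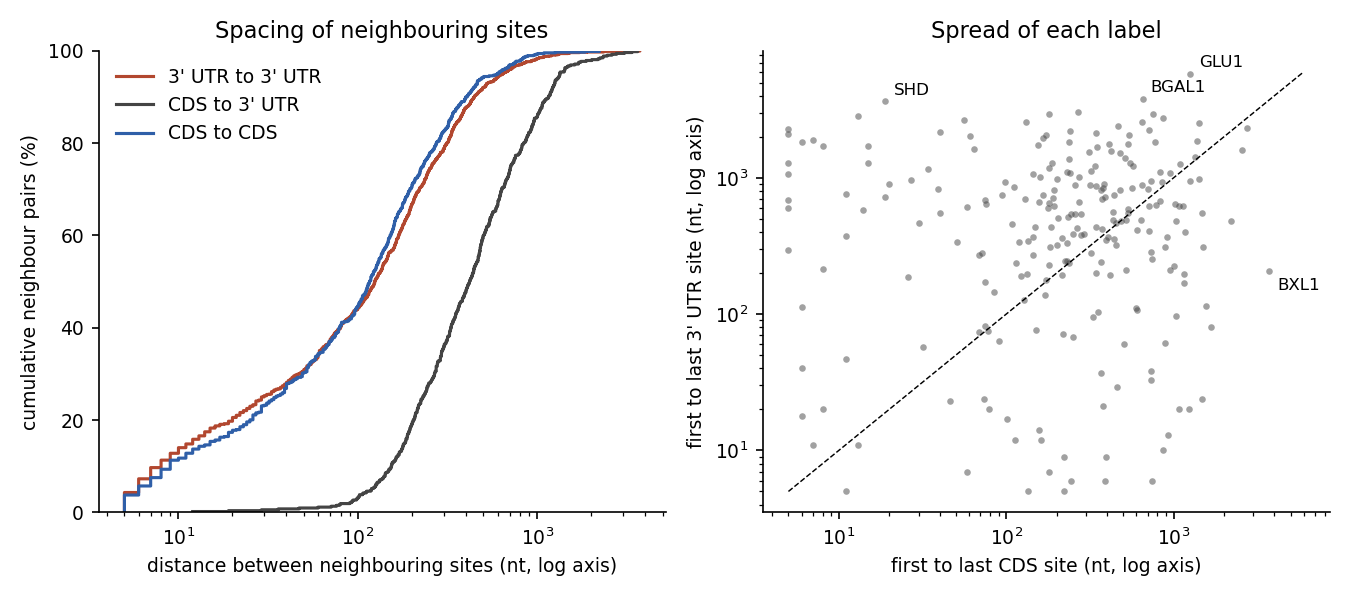
Left, cumulative share of neighbouring site pairs by distance in nt (log axis), for pairs of 3' UTR sites, pairs of a CDS and a following 3' UTR site, and pairs of CDS sites. Right, distance from the first to the last 3' UTR site against that from the first to the last CDS site of each of 236 genes with at least 2 of each (log axes, dashed line at equality). The curves of the same-label pairs lie on each other with medians of 124 and 116 nt, and the curve for the change of label lies to the right with a median of 419 nt.

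Called peaks, the 1 nt positions from which the sites were built, were slightly denser around 3' UTR sites. A 3' UTR site held 2.20 ± 0.775 called peaks and a CDS site 2.12 ± 0.739 (SD over 2036 and 1212 sites). In the 50 nt on each side of the site centre, outside the site, 3' UTR sites had 5.95 ± 2.39 called peaks and CDS sites 5.49 ± 2.27. Within genes the second measure was higher for the 3' UTR in 270, higher for the CDS in 217 and equal in 35. The difference was a small part of 1 SD between sites, and peaks and sites come from the same pull-down.

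The functions of the genes were described by 16 lists chosen with earlier results of these data known. The counts are read beside the 37.2% of all protein-coding targets and the median of 2 sites per target. Genes with many sites carried both labels more often. Of all protein-coding genes, 51.4% with 3 or 4 sites, 73.1% with 5 to 9 and 88.5% with 10 or more had both labels. Median sites per target were 17 for pumps, channels and transporters, 9 for myrosinases and glucosinolate synthesis, 8.5 for proteases and 8 for aquaporins. They were 7.5 for photorespiration, 7 for the Calvin cycle and Rubisco, 7 for the cell wall and 4 for light harvesting and photosystems. No list was tested.

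Of 9 target genes for ER chaperones and disulfide isomerases, 8 had both labels, with 85 3' UTR and 23 CDS sites and a median of 13 sites per target. After SHD came CNX1, the membrane-bound lectin chaperone calnexin, with 5 3' UTR and 9 CDS sites, and the HSP70-type chaperones BIP1 and BIP2 with 13 and 1 and with 11 and 3, which are near-identical copies. In 7 of the 8 genes 3' UTR sites were the more numerous, and CNX1 was the exception. The 3' UTR median score was higher in 3 of the 8, against 62.6% of the class. In a list of 7 vacuolar and secreted proteases all 6 targets had both labels, with 50 3' UTR and 16 CDS sites. The list is not complete: by description, 6 of 10 aspartic protease targets, of which APA1 is in the list, and 2 of 3 subtilase targets had both labels. Beside APA1 and RD19, the targets in the list of vacuolar and secreted proteases were ALP, RD21A, GAMMA-VPE and AT4G01610. ALP, the aleurain-like protease, had 9 and 1, and RD21A, a cysteine protease with a granulin domain, 5 and 3. GAMMA-VPE, the vacuolar processing enzyme, had 6 and 2, and AT4G01610, a further cysteine protease, 6 and 1. The 3' UTR median was higher in 2 of the 6 targets in the list, RD19 and AT4G01610.

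Of 13 aquaporin targets, the water channels of the plasma membrane and vacuole, 11 had both labels, and the 3' UTR median score was higher in 10 of the 11 (median difference 0.30). PIP1C had 7 3' UTR and 4 CDS sites, PIP3 8 and 2, and PIP1A 7 and 3. Members of the plasma membrane aquaporin family resemble each other closely, so their CDS sites may share reads. Of 9 targets among pumps, channels and transporters, 5 had both labels, with 73 3' UTR and 19 CDS sites, and the 3' UTR median was higher in 3 of the 5. Of 7 myrosinase and glucosinolate targets, 5 had both, with 55 3' UTR and 10 CDS sites and the 3' UTR median higher in 4 of 5. PYK10, the beta-glucosidase of ER bodies, had 16 and 2, and BGLU18, its relative in leaves, 9 and 1. Of 11 cell wall targets, 7 had both, where BGAL1 was followed by XTH6, a xyloglucan endotransglucosylase, with 9 and 1 and EXGT-A3, of the same enzyme family, with 6 and 2. The 3' UTR median was higher in 3 of the 7, and XTH6 had a difference of -1.22.

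Photosynthesis gave the list with most genes of the class. Of 44 nuclear targets for light harvesting and the photosystems, 27 had both labels (61.4%), with 101 3' UTR and 53 CDS sites, and the 3' UTR median was higher in 17 of 27. PSBP-1, of the oxygen-evolving complex, had 9 3' UTR sites and 1 CDS site, LHCB5, an antenna protein, 7 and 2, and PSBO2 6 and 3. Of 17 Calvin cycle and Rubisco targets, 11 had both, with the 3' UTR median higher in 9 of 11. PGK1, the plastid phosphoglycerate kinase, had 12 and 1, the transketolase gene AT3G60750 6 and 7, and RBCS3B 3 and 6. Photorespiration had both labels in 7 of 16 targets, with the 3' UTR median higher in 3 of 7, and its leading members SHM1, GLU1 and GLDP1 had 16 and 6, 13 and 7, and 13 and 4. In 6 of these 7 genes the 3' UTR sites spread over more than 1000 nt, against 1 of the 27 light-harvesting and photosystem genes.

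Of 102 targets described by the authors as a ribosomal protein, 23 had both labels (22.5%), with a median of 2 sites per target, and 65 had 3' UTR sites only. The list goes by those words and leaves out EMB3105 and AT5G65220, described as ribosomal L18p/L5e and L29 family proteins, which had both labels with 1 and 1 and with 4 and 2 sites. Among the 23, the 3' UTR median was higher in 12. Of these 23, emb2386, of the large subunit, had most sites, with 3 3' UTR and 3 CDS sites, and EMB3126, AT5G24490, EMB3137 and GHS1 were level with 3 and 2 each. In a short list headed translation factors 2 of 6 targets had both labels. These were TCTP, a translationally controlled tumour protein rather than a factor by name, with 5 and 3, and the elongation factor gene AT5G60390, with 3 and 4. FBR12, an initiation factor 5A that the list does not hold, had 6 and 1. Of the cytosolic and plastid chaperones 3 of 6 targets had both, led by CLPC1, a plastid chaperone of the Clp protease, with 9 and 2. Nitrogen assimilation had 3 of 7, where NIA2 and NIA1, the nitrate reductases, had more CDS than 3' UTR sites, 4 and 7 for NIA2 and 2 and 3 for NIA1, and ASN2, an asparagine synthetase, had 9 and 1. Chlorophyll synthesis had both labels in 1 of 4 targets (CHLI1, a subunit of magnesium chelatase), the methionine cycle in 1 of 2 (ATMS1, methionine synthase) and cytosolic glycolysis in 1 of 6 (TPI, triosephosphate isomerase). The plastid genome gave 1 gene of the class, ATCG00490, with 1 3' UTR site and 3 CDS sites.

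**Figure D5:**
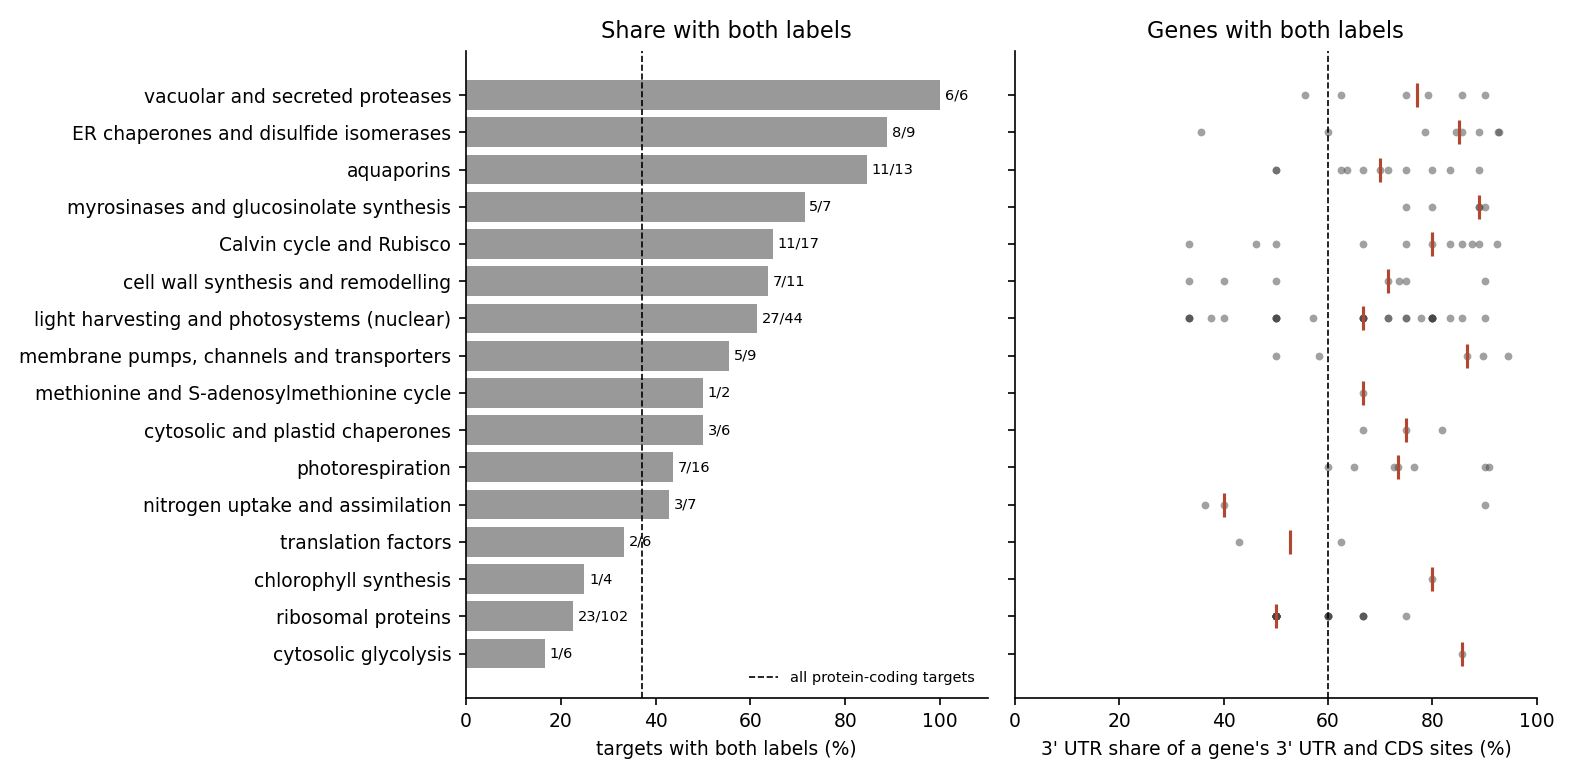
Left, share of the target genes of each list that had both labels (bars, with the counts beside them). The dashed line is at the 37.2% of all protein-coding targets, whatever their number of sites. Right, 3' UTR share of the 3' UTR and CDS sites of each gene with both labels (points) and the median of each list (upright marks), with the dashed line at the 60.0% of the class. Shares range from 1 of 6 glycolysis targets to 6 of 6 protease targets, and the list medians of the 3' UTR share run from 40.0% for nitrogen uptake to 88.9% for myrosinases.

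Of the genes outside the rule, which had a median of 1 site under each single label, those with most sites were the following. SNG1, a sinapoyltransferase, had 24 3' UTR sites and no CDS site, TPC1, a vacuolar cation channel, 17, and GAPB, a plastid glyceraldehyde phosphate dehydrogenase, 16. With CDS sites and no 3' UTR site the leading genes were all of the plastid genome, PSBC with 15, PSAB with 14 and PSBA with 9.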

How the data were processed

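iCLIP2 sites of GFP-tagged TSN1 from 3 replicates were analysed as deposited, in lists that pool the replicates. The submitters' processing notes name the TAIR10 genome, STAR 2.7.3a, UMI-tools 1.0, bedtools 2.27.1, SAMtools and FastQC 0.11.5. How peaks were called and regions labelled is not given in the sources used here. Each site's deposited score is the highest called-peak score inside it, per the file headers, and has no unit. The number of sites per gene, deposited as a count, equalled the sites listed for each of the 522 genes of the class. Read depth per library is unknown here, so no precision from depth can be given.

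Genes, labels and coordinates were read from the authors' annotated table. The photosystem, ribosomal and family lists go by words of the description. Scores were compared on the log2 scale of the deposited score within each gene. Shares have Wilson 95% intervals and medians order-statistic 95% intervals. No test was run. Members, lists and naming rules were chosen with earlier results of these data known. Named were the 10 genes with most sites, the 10 with the highest summed score, 5 with the largest difference each way among genes with at least 3 sites of each label, 5 with most CDS sites, 5 with 3' UTR sites upstream of CDS sites, and up to 3 per list. CAB1's rank by difference, the other members of short lists, genes level with a named one, genes that a list left out, the families of the closing section and ATCG00490 were added after values were seen. The computation was tested on simulated sites of 522 genes. Python 3.11.15, pandas 2.3.3 and numpy 2.4.6 were used. Positions along reference gene spans, exon placement and base composition were not analysed, since no genome or exon model of the build was used.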

Additional observations from a re-analysis of the deposited data

How the results depend on the processing

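Of 40 comparisons of a result with an alternative setting, 29 stayed within the interval (for gene numbers, within 1.5 times) of the reported value. The other 11 did not, and no score difference among the 40 changed sign. Distant 3' UTR sites taken alone, with a difference of -0.0017 (-0.10 to 0.13) in 204 genes, were not among the 40. Some of the 29 were fixed by the setting. The 500 nt window keeps every gene, and leaving out the 10 genes with most sites sets the gene number at 512. The number of genes with both labels was 269 with sites above the median score alone and 236 with at least 2 sites of each label. The 3' UTR share was 60.0% with at least 2 of each, 52.0% with 3' UTR sites within 500 nt of the most 3' one and 58.8% with each gene counted once. The within-gene score difference was 0.24 with that 500 nt window, 0.34 with equal numbers of sites and 0.45 by the highest score. The share of genes with the higher 3' UTR median was 67.4% with at least 2 of each. The share with the higher best site in the 3' UTR was 63.9% with equal numbers. The spacing of 3' UTR sites was 74 nt with the 500 nt window. Equal numbers and the removal of out-of-order genes were chosen after seeing the data. Requiring 2 sites of each label lowered the count in all lists but translation factors and the methionine cycle. No replicate could be left out, and no paired analysis was possible because the lists pool the replicates. Read depth is unknown.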

Other observations

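Protein families were picked by description after the values were seen and are given as counts, with no test, beside 37.2% of all protein-coding targets with both labels and a pooled 3' UTR share of 62.7% in the class. The families given with counts had medians of 5 to 10 sites per target, against 2 over all protein-coding targets. Cytochromes P450 and lipid transfer proteins, given by share only, each had a median of 2. Of all protein-coding genes with 5 to 9 sites, 73.1% had both labels. Families with the lowest 3' UTR share come first. Of 9 target genes for 3-ketoacyl-CoA synthases, which lengthen fatty acids for waxes, 5 had both labels with 16 3' UTR and 26 CDS sites (38.1% 3' UTR), and 4 had CDS sites only. KCS6 had 5 3' UTR and 9 CDS sites and KCS10 3 and 8. Of 16 leucine-rich repeat proteins, 9 had both labels with 27 3' UTR and 41 CDS sites (39.7%). More CDS sites stood in 5 of the 9, such as AT1G33600 and AT1G49750 with 1 and 7 each, and more 3' UTR sites in 3, such as AT1G51805 with 8 and 3. The 2 subtilases with both labels, ARA12 and AT3G14067, had 1 and 12 and 6 and 4.

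Of the other families, xyloglucan endotransglucosylases, glutathione S-transferases, GDSL-type lipases (66.7%) and the major facilitator superfamily (63.5%) had a share above that of the class. The share of class III peroxidases was just below it. Lower shares were those of lipid transfer proteins (57.1%), cytochromes P450 (55.6%), aspartic proteases (53.7%) and glycine-rich proteins. All 7 xyloglucan endotransglucosylases with both labels, of 9 targets, had more 3' UTR than CDS sites (39 and 12, 76.5%), although the 3' UTR median score was higher in only 2 of the 7. Of 9 class III peroxidase targets, which crosslink and loosen cell walls, 8 had both labels with 27 and 17 sites (61.4%). Of 12 glutathione S-transferase targets, which detoxify by adding glutathione, 9 had both with 33 and 16 (67.3%), and the 3' UTR median score was higher in 7. The 6 glycine-rich proteins with both labels had 14 sites of each (50.0%).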
